A study of Homo sapiens with 4 samples.

Results

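A set of 472 HAUSP peaks, out of the 1379 HAUSP peaks in H1299 lung cancer cells, lay away from gene starts and overlapped no HAUSP peak of MDA-MB-231 breast cancer cells. These peaks were chosen by their place and by measured overlap: a peak was kept if it shared 0 bp with every one of the 1343 HAUSP peaks of MDA-MB-231 and came no closer than 500 bp to a transcription start site (TSS), with 1 TSS for each annotated gene. Absence from the MDA-MB-231 list was thus the criterion and not a finding, and 834 of the 1379 peaks, or 60.5%, met that condition before the TSS windows were applied. The study recovered DNA by chromatin immunoprecipitation and sequencing (ChIP-seq), with 1 library each for HAUSP in MDA-MB-231, HAUSP in H1299 and HIF-1α in H1299, all from cells grown in serum-containing DMEM, and its aim was to find genes bound by both proteins. An H1299 input library, prepared without antibody, was not used here. The oxygen level of the ChIP-seq cultures and the control used to call peaks were not given in the sources used here. Every group is a single library of a single cell line, so the 2 lines cannot be told apart from the 2 libraries and no test between them was possible. The depth behind each peak is unknown.

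HAUSP, also called USP7, is a deubiquitinase that removes ubiquitin from proteins such as MDM2 and p53, and HIF-1α is the oxygen-regulated subunit of the hypoxia-inducible transcription factor. HIF-1α pairs with ARNT and binds the core ACGTG in hypoxia response elements, which lie in promoters as well as in distant enhancers. HAUSP is not known as a sequence-specific DNA-binding protein, and a ChIP-seq peak marks where it was crosslinked to chromatin, directly or through other proteins.

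The sequences below come from the GRCh37 (hg19) reference, plus strand, and were picked after the values were known. The first 7 show the HIF core where H1299-only distal HAUSP peaks overlapped a HIF-1α peak, with ACGTG, or its reverse complement CACGT, in capitals at the centre. PLOD2 and KDM4C are shown as short stretches because they lie in annotated UTRs. The ANGPTL4 site was chr19:8426969-8427089, between genes and upstream of ANGPTL4. The UPRT site was chrX:74493747-74493867, in an intron of UPRT at an annotated transcript start. The MRPL1 site was chr4:78843140-78843260, in an intron of MRPL1. The site in ENSG00000223725 was chr2:208259593-208259713, in an intron of that gene. The FMNL2 site was chr2:153399492-153399612, in an intron of FMNL2. The PLOD2 site was chr3:145879155-145879183 and the KDM4C site was chr9:6757658-6757686.
ANGPTL4: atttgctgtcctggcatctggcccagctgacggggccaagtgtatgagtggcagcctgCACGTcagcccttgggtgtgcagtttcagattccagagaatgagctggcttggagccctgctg
UPRT: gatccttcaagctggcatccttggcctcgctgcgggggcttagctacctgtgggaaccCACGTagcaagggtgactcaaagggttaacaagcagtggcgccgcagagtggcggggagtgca
MRPL1: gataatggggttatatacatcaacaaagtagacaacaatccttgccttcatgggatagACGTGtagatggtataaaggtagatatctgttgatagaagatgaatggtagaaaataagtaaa
ENSG00000223725: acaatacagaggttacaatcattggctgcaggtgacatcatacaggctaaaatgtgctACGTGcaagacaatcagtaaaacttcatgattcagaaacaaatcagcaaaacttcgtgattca
FMNL2: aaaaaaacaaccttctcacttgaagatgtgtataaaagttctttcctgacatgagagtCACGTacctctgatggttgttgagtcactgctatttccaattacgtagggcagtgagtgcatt
PLOD2: ctgcctgcggctACGTGtggaggctcacg
KDM4C: gcgcccaggaggACGTGtggcgcgtggac

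The other 2 sequences show the contrast in composition among the remaining peaks. The centre of a peak in an intron of C12orf40, chr12:40091619-40091769, was AT-rich, and no word is marked in it. It held AGATAA and CCAAT, which are among the words searched further on. The peak belonged to a group of peaks on chromosome 12 described further on. The last sequence is the centre of a peak beside the centromere of chromosome 10, chr10:39079393-39079543. It is named after its nearest annotated protein-coding gene, LINC00999, which was 362394 bp away. It was built of the pericentromeric satellite unit ATTCC, which is in capitals and occurred 12 times in the 151 bases shown.
C12orf40: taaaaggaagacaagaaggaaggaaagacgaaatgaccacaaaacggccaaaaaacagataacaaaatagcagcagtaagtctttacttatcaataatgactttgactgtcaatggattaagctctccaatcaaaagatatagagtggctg
LINC00999: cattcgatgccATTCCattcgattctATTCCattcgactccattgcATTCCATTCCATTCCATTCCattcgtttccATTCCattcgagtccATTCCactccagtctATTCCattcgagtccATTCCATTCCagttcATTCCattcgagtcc

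The 472 peaks were weakly scored members of the H1299 list. Each peak carries a deposited score of unnamed scale, which serves below to order peaks inside a list. The median score of the H1299-only distal peaks was 63.0, from 50.03 to 283.61, and 50 of them, or 10.6% (exact 95% Clopper-Pearson interval 7.97 to 13.7), reached 100, where 388 of all 1379 peaks, or 28.1%, did. Among the 448 distal peaks that overlapped an MDA-MB-231 peak the median score was 105.6 and 238, or 53.1%, reached 100. The 362 promoter peaks found only in H1299 scored like the H1299-only distal peaks, with a median of 62.6 and 42 of 362, or 11.6%, at 100 or more. Score and choice come from the same peak calling, so these values are a description. Intervals throughout cover counting error only.

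The 10 peaks with the highest scores were spread over 8 chromosomes. The highest, with a score of 283.61 and rank 91 in the H1299 list, lay in an exon of PLOD2, which encodes a lysyl hydroxylase that modifies collagen and is a known HIF target. A peak at chr8:58122014-58123665 in an intron of the long noncoding RNA LINC01606 scored 274.68. A peak at chr14:23770166-23770893 scored 243.34 and its centre lay in an exon of PPP1R3E and within the bounds of BCL2L2, 1524 bp from the TSS of HOMEZ. A short peak of 395 bp at chr7:56441045-56441439 scored 229.25 and had NUPR2 as its nearest protein-coding gene. In the 1000 bp around its centre, which reach beyond the peak, 73.6% of 32-base words occurred more than once in the genome. The peak in KDM4C, which encodes a Jumonji histone demethylase acting on histone H3 lysine 9, scored 216.29 at rank 142. Scores below these were 207.53 near TOX, 196.99 at ADGRL1, 191.29 in an intron of MIER2 and 187.99 near NUDT8. Of the 10 peaks 5 overlapped a HIF-1α peak, among them those in PLOD2 and KDM4C and those near TOX and NUDT8. The peaks near TOX and NUDT8 lay between genes, 104247 bp and 9192 bp from the TSS of those genes. The peaks at LINC01606, PPP1R3E, ADGRL1 and MIER2 and the peak near NUPR2 did not overlap one.

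**Figure D1:**
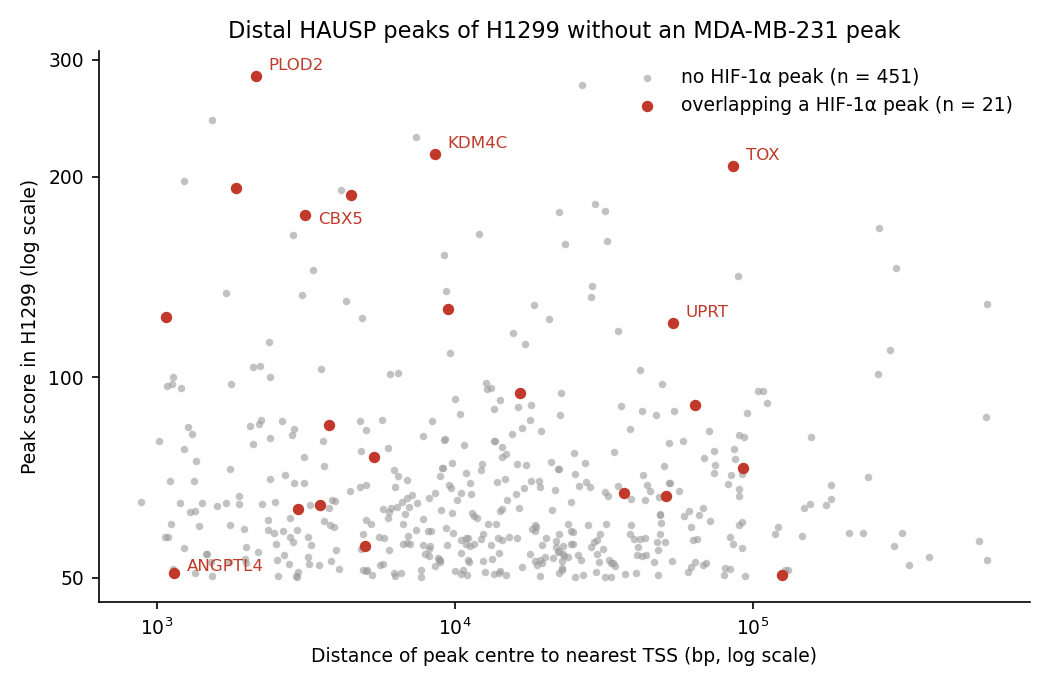
Score of each of the 472 H1299-only distal HAUSP peaks (y axis, log scale) against the distance in bp from its centre to the nearest TSS of any gene (x axis, log scale), with the 21 peaks that overlap a HIF-1α peak in red and the other 451 in grey. Red points lie among the highest scores (PLOD2, KDM4C, TOX) and among the lowest (ANGPTL4), and at distances from 1069 bp to over 100000 bp.

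Just inside the criteria, the peaks nearest to an MDA-MB-231 peak were separated from it by 156 bp near POTEA and 178 bp near REXO1L1, both on chromosome 8, and by 206 bp near USP9Y on chromosome Y. On the other side of that limit, the distal peaks with the smallest overlap shared 360 bp near SPIN4, 369 bp near MTRNR2L1 and 376 bp near EMB with MDA-MB-231 peaks. Each of these overlaps covered the whole H1299 peak, so these were narrow peaks and not borderline cases. On the TSS side, the peaks with the shortest distance from their edge to a TSS were 526 bp from MLLT10P2, 528 bp from ZDBF2 and 531 bp from RELT, while the H1299-only promoter peaks farthest from their TSS were 492 bp from FHL3, 489 bp from a Y_RNA gene and 487 bp from FBXL14. Most of the peaks were far from the limit on the MDA-MB-231 side. The median distance from edge to edge to the nearest MDA-MB-231 HAUSP peak was 346899 bp (exact 95% order-statistic interval 271575 to 433954), with 18 of 472 within 2000 bp, 46 within 10000 bp and 149 within 100000 bp.

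With genes of every type counted, the centre of an H1299-only distal peak was most often inside a gene. With protein-coding genes only, 55.1% of these centres lay between genes. Over all 1379 HAUSP peaks and genes of every type, 37.6% of centres were in introns, 19.7% in exons and 42.7% between genes. For the H1299-only distal peaks the centre was in an intron in 225 of 472, or 47.7% (43.1 to 52.3). It was in an exon in 49, or 10.4% (7.78 to 13.5), and between genes in 198, or 41.9% (37.5 to 46.5). Distal peaks shared with MDA-MB-231 were in introns in 151 of 448, or 33.7% (29.3 to 38.3), in exons in 18, or 4.02% (2.4 to 6.28), and between genes in 279, or 62.3% (57.6 to 66.8). The intron hosts included a protein-coding gene in 171 of 225, the exons belonged to one in 40 of 49, and 19 of the 49 exonic centres were in an annotated UTR. The difference between the classes was smaller among peaks over 1 Mb from any assembly gap, a run of at least 50 kb of unknown bases such as those at centromeres and chromosome ends, where introns held 167 of 296 H1299-only peaks, or 56.4%, and 101 of 200 shared ones, or 50.5%. Near such gaps lay 176 of the 472, or 37.3% (32.9 to 41.8), against 248 of the 448 shared distal peaks, or 55.4%, and 521 of all 1379, or 37.8%.

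Most of the peaks lay within 100000 bp of the start of some gene, among 64486 annotated genes of every type. The share of the genome within that distance was not measured. The median distance from centre to the nearest TSS of any gene was 13380.5 bp (11051 to 15483), and 45 of 472 were within 2000 bp, 200 within 10000 bp and 442 within 100000 bp. For the distal peaks of both lines the median was 20320 bp (17564 to 23913). Measured to the nearest protein-coding gene the median was 45460 bp, and the centre lay downstream of that TSS in 297 cases and upstream in 175. Exonic peaks were the closest, with a median of 3218 bp, and those between genes the farthest, with 18534 bp. The minimum of these distances is set by the choice of peaks.

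A gene has 1 TSS in the criterion but often several transcripts, and 86 of the 472 peaks, or 18.2% (14.8 to 22.0), touched the 500 bp window of some annotated transcript start while touching no gene-level TSS. Among distal peaks of both lines this was so for 33 of 448, or 7.37% (5.12 to 10.2). The 86 included the peaks at PLOD2, where 15 transcript starts were touched, at KDM4C, where 6 were, and at UPRT, CBX5, ZDBF2, C4orf3 and PDE11A. Their centres were in introns in 52 and in exons in 33, their median GC content was 55.2% against 45.1% for the other 386, and 21 of 86 had island-like sequence (GC of at least 50% and a ratio of observed to expected CpG of at least 0.6) against 12 of 386. The word "distal" therefore described 386 of the 472 peaks under both definitions.

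The HIF-1α list of H1299 was not used to choose the peaks. Of the 472, 21 overlapped a HIF-1α peak by at least 1 bp, or 4.45% (2.77 to 6.72), where 110 of all 1379 HAUSP peaks, or 7.98%, did. The distal peaks of both lines gave 30 of 448, or 6.70% (4.56 to 9.42), the H1299-only promoter peaks 26 of 362, or 7.18% (4.75 to 10.3), and the promoter peaks of both lines 33 of 97, or 34.0% (24.7 to 44.3). The intervals of the first 3 classes overlapped, and each lay below the interval of promoter peaks of both lines. Overlap was all or nothing, as 21 peaks had a HIF-1α peak within 2000 bp of their edges, the same number as overlapped one, while 30 had one within 10000 bp and 112 within 100000 bp.

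Overlap with HIF-1α went with the HAUSP score, the transcript starts and the assembly gaps. Of the 50 H1299-only distal peaks with a score of at least 100, 9 overlapped a HIF-1α peak, or 18.0% (8.58 to 31.4), and of the 422 below 100, 12 did, or 2.84% (1.48 to 4.91). Shared distal peaks showed 25 of 238, or 10.5% (6.91 to 15.1), at scores of at least 100, and 5 of 210, or 2.38%, below. At transcript starts, 9 of 86 overlapped, or 10.5% (4.90 to 18.9), against 12 of 386 elsewhere, or 3.11% (1.62 to 5.37). Near assembly gaps 2 of 176 overlapped, or 1.14% (0.138 to 4.04), against 19 of 296 away from them, or 6.42% (3.91 to 9.84). All 9 transcript-start peaks with HIF-1α were away from gaps, and 10 of the 229 peaks that were neither near a gap nor at a transcript start overlapped HIF-1α.

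**Figure D2:**
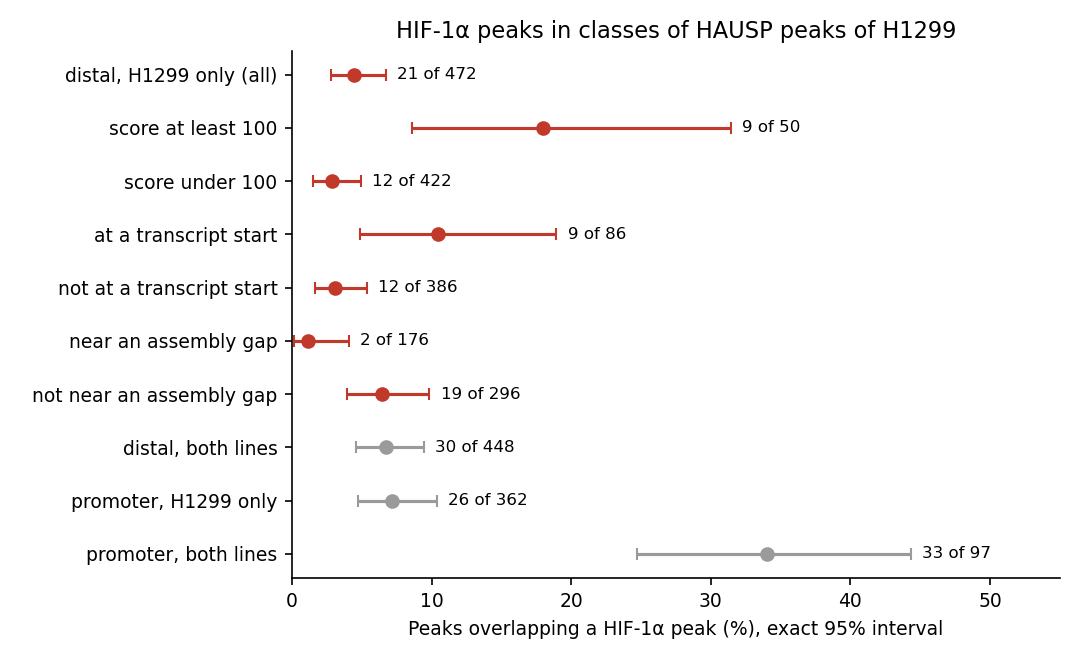
Share of HAUSP peaks that overlap a HIF-1α peak (x axis, %), with exact 95% intervals as bars and counts beside them, for the H1299-only distal peaks and their subsets (red) and for the other classes of H1299 peaks (grey). The point for scores of at least 100 (9 of 50) stands to the right of the point for scores under 100 (12 of 422), and promoter peaks of both lines (33 of 97) lie farthest to the right.

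The 21 doubly marked peaks were strong or weak in either list. Their HAUSP scores ranged from 50.52 to 283.61 with a median of 90.7, and the scores of their HIF-1α peaks from 50.11 to 254.14 with a median of 84. In 19 of 21 the HIF-1α peak was contained in the HAUSP peak, and the centres were a median of 101 bp apart and at most 580 bp. The place was an intron in 11, an exon in 5 and between genes in 5.

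Of the 21, 6 had a HIF-1α score of at least 100. The highest HIF-1α score, 254.14, was at CBX5, which encodes the heterochromatin protein HP1α, in a peak with a HAUSP score of 175.07 at chr12:54652603-54653903, and the overlap held no ACGTG. A peak in an intron of ENSG00000223725, with CREB1 as the nearest protein-coding gene, had a HIF-1α score of 236.72 and a HAUSP score of 50.52, which is close to the bottom of the H1299 list. The peak in an intron of WFDC3 had HIF-1α and HAUSP scores of 143.24 and 63.33, and the exonic PLOD2 peak had 129.39 and 283.61. APOLD1, with 101.59 and 94.7, was the last with a HIF-1α score above 100.

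The next 9 had HIF-1α scores from 67.59 to 94.07. They were the peaks at C4orf3, at DYNLL1 and SRSF9, which encode a dynein light chain and a splicing factor, in an intron of the formin gene FMNL2, at ENSG00000261611 and ZNF19, near NUDT8, at ZDBF2, in an intron of the mitochondrial ribosomal protein gene MRPL1, near ANGPTL4 and in PDE11A, a phosphodiesterase gene. The peak near ANGPTL4, which encodes a secreted inhibitor of lipoprotein lipase and is a known hypoxia-induced gene, lay at chr19:8426584-8427483 with its centre 1140 bp upstream of the TSS, and its scores were 73.87 for HIF-1α and 50.71 for HAUSP. KDM4C, with a HIF-1α score of 67.46, and TOX, with 64.58, came next.

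The HIF core was present in most of these overlaps and not in all. ACGTG on either strand was found in the stretch shared by both peaks in 14 of 21 cases and somewhere in the HAUSP peak in 15. The overlaps at KDM4C and at ENSG00000261611 and ZNF19 each held 5 cores, that at ZDBF2 held 3 and that at PLOD2 held 2. No core was found in the other 7 overlaps, which included those at CBX5, C4orf3 and PDE11A and those near NUDT8 and TOX. A match is a run of letters and not a measured binding site.

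The genes nearest to H1299-only distal peaks were set against lists of known genes. Of 20149 protein-coding genes, 389 were the nearest one to at least 1 of the 472 peaks, or 1.93%. In a list of 46 HIF targets 3 were, or 6.52%, namely PLOD2, ANGPTL4 and CA12. CA12, a membrane carbonic anhydrase that takes part in pH control, had a peak with a score of 80.7 in its own intron, 9250 bp downstream of the TSS, with no HIF-1α peak. In a list of 22 Jumonji demethylases only KDM4C was nearest, or 4.55%. In a list of 31 regulators of epithelial-mesenchymal transition only SMAD3 was, or 3.23%. SMAD3, a mediator of TGF-β signalling, had its peak of score 60.18 at 131029 bp upstream in LINC02206. None of 40 partners and substrates of HAUSP was nearest to a peak. The lists were chosen with earlier results of these data known, and no test was run on their counts.

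In a list of 27 genes with well-known distal regulation in lung or mesenchymal cells, 4 were nearest to a peak, or 14.8%. They were JUN, an AP-1 subunit, with a peak of score 53.68 at a distance of 235728 bp in LINC01358, TEAD4, a nuclear partner of YAP, with a peak of score 54.29 in its intron 1461 bp downstream of the TSS, EGFR, the epidermal growth factor receptor, with a peak of score 55.57 in its intron 148164 bp downstream, and MYC, with a peak of score 61.81 in an intron of PVT1, 117718 bp downstream. All 4 scored below the median of the H1299-only distal peaks, and none overlapped a HIF-1α peak. The peak in TEAD4 touched transcript starts of TEAD4 itself. The peak nearest to JUN touched transcript starts of LINC01358 and not of JUN. The peak in PVT1 also touched transcript starts, with its centre 117718 bp from the TSS of MYC.

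Genes annotated as protein-coding and nearest to 3 or more peaks were led by TPTE with 9 peaks. PPIAL4G and LINC00999 had 8 each, USP9Y had 6 and ENSG00000284209 had 5. TSPY10, SPIN4, SPIDR, POTEA and ZNF337 had 4 each. C12orf40, BPNT2, FRG1, FANK1, IGHV3OR16-17, GOLGA6L6, TMEM121 and NPIPB15 had 3 each. The type is that of the annotation, which lists LINC00999 and IGHV3OR16-17 as protein-coding. These counts describe where peaks fell and not which gene they act on.

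The density of H1299-only distal peaks was 0.165 per Mb of sequenced bases and was highest on chromosomes 19, 21 and Y. Chromosome 19 held 35 peaks, or 0.627 per Mb, and 30 of them were away from gaps. Chromosome 21 held 18, or 0.513 per Mb, of which 15 were near a gap, and chromosome Y held 11, or 0.479 per Mb, all near a gap. The order changed when peaks near gaps were left out, with chromosome 19 at 0.538 per Mb, chromosome 21 at 0.0855 and Y at 0. Relative to the distal peaks of both lines, chromosome 12 held 41 against 10, and chromosome 9 held 15 against 38. Chromosome 13 held 1.

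The peaks were partly grouped along chromosomes, and more so beside gaps. Another H1299-only distal peak lay within 100 kb of 120 of the 472, or 25.4% (21.6 to 29.6). Counted only among the peaks near gaps, 78 of 176 had such a neighbour, or 44.3% (36.85 to 51.98), and counted only among those away from gaps, 40 of 296 did, or 13.5% (9.83 to 17.9). The distal peaks of both lines, counted among themselves in the same way, gave 180 of 448, or 40.2%, overall and 27 of 200, or 13.5%, away from gaps. Runs joined by steps of at most 100 kb numbered 30 with 2 peaks, 5 with 3, 7 with 4, 1 with 5 and 2 with 6.

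The 5 windows of 1 Mb with the most peaks were all beside gaps. They included 142 to 143 Mb of chromosome 1 and 39 to 40 Mb of chromosome 10, with 6 peaks each. The nearest annotated protein-coding genes of those peaks were far away. PPIAL4G on chromosome 1 was at 814121 to 1135620 bp and LINC00999 on chromosome 10 at 362394 to 433145 bp. The window at 13 to 14 Mb of chromosome Y held 6 peaks, with USP9Y as the nearest gene. The window at 10 to 11 Mb of chromosome 21 held 5, with TPTE as the nearest. At 190 to 191 Mb of chromosome 4 were 5, with FRG1 and FRG2 as the nearest. The windows differed in how far MDA-MB-231 peaks were absent. The one on chromosome 10 held no MDA-MB-231 HAUSP peak and no other H1299 HAUSP peak, with scores of 54.12 to 145.09. In contrast, the one on chromosome Y held 25 H1299 peaks and 23 MDA-MB-231 peaks in all. Whether the reads behind the peaks listed on chromosome Y came from a Y chromosome of either line was not tested. None of the peaks in these 5 windows overlapped a HIF-1α peak. The HIF-1α list itself held no peak centred in any of these windows, so the absence of overlap is not a trait of the HAUSP peaks there.

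A group away from any gap lay between 40 and 50 Mb of chromosome 12 and was singled out after the values were seen. It held 17 H1299-only distal peaks among 20 H1299 HAUSP peaks, with no shared distal peak, 1 MDA-MB-231 HAUSP peak and 30 HIF-1α peaks. None of the 17 overlapped a HIF-1α peak, and 0 of 17 allows a share of up to 19.5% by the exact interval. Their centres were in introns in 11 and between genes in 6, at or near C12orf40, SLC2A13, PDZRN4, GXYLT1, ADAMTS20, TMEM117, NELL2, ANO6, SLC38A2, RPAP3 and LALBA. They were wide, with a median of 2459 bp (1870 to 2788) against 1135 bp for all 472. They were AT-rich beside the other peaks, with a median GC content of 38.2% (35.0 to 39.1) against 47.4% for all 472. The median of all sequenced genome tiles of 1000 bp was 39.9%, much nearer to that of the group. Their scores ran from 50.44 to 78.43, and their median of 62.12 (57.45 to 69.62) was close to the 63.0 of all 472. The median share of 32-base words found more than once in the genome was 0.516% (0 to 13.1). For all H1299-only distal peaks away from gaps it was 1.75% (0.31 to 2.99). No repeated word was present in 41.2% of peaks in the group and in 41.2% of all those away from gaps.

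Sequence composition set the peaks apart from bulk genome, and differed with their place. The median GC content was 47.4% (46.1 to 48.5), against 39.9% for all 2858365 sequenced tiles of 1000 bp, of which 83.0% lay below the median of the peaks. The distal peaks of both lines had 46.2% (44.8 to 47.2), and promoter peaks of H1299 only had 55.5%. Exonic peaks had 55.3%, intronic ones 48.2% and those between genes 43.2%. Near gaps the median was 43.2% (40.9 to 47.0) and away from them 48.5% (47.4 to 49.2). The values ran from 25.4% for a peak near ZNF92 to 69.3% for one near HDAC2, both named after their values were seen. Island-like sequence was found in 33 of 472, or 6.99%, as in 28 of 448 shared distal peaks, or 6.25%, whereas 194 of 362 H1299-only promoter peaks, or 53.6%, had it.

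Repeats were measured as the share of 32-base words in the central 1000 bp that occur more than once in the reference genome. No such word was present in 146 of 472 peaks, or 30.9% (26.8 to 35.3), and in 51 of 448 shared distal peaks, or 11.4% (8.59 to 14.7). At least 50% of words were repeated in 62, or 13.1% (10.2 to 16.5), and in 109 shared ones, or 24.3% (20.4 to 28.6). The median was 23.8% near gaps and 1.75% away from them, and for shared distal peaks 35.1% and 9.44%. The authors' mapping kept reads with unique alignments, and the part of mapping in these values was not tested. The satellite word ATTCCATTC was found in 28 peaks, of which 25 were near a gap, with 8 each on chromosomes 10 and 16 and 4 on chromosome Y, and 1 of the 28 overlapped a HIF-1α peak.

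**Figure D3:**
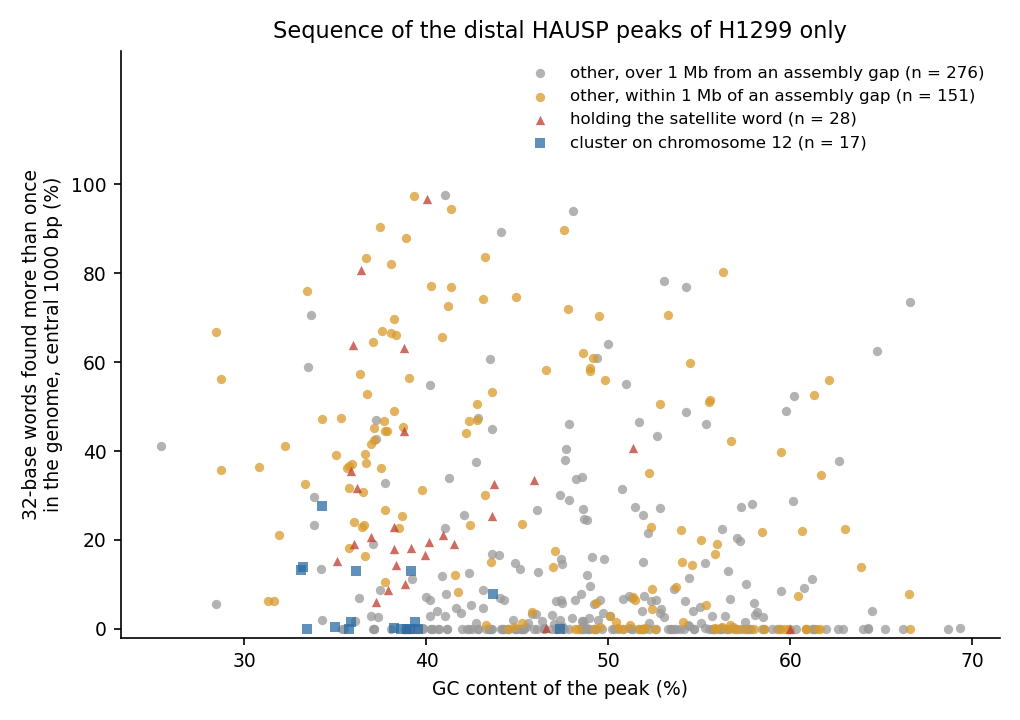
GC content of each H1299-only distal peak (x axis, %) against the share of its central 32-base words found more than once in the genome (y axis, %), with peaks that hold the satellite word as triangles, the 17 peaks of the chromosome 12 group as squares, and other peaks within 1 Mb of an assembly gap (gold) or farther away (grey) as circles. The squares lie at low GC and low repeat content, and the gold circles and triangles make up most of the points at low GC and high repeat content.

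Short words, 9 in all, were searched on both strands in the central 1000 bp, and no test was run on them. ACGTG, the HIF core, was present in 234 of 472, or 49.6% (45.0 to 54.2), in 44.9% of the distal peaks of both lines and in 32.6% of all genome tiles of the same length. CACGTG, the E-box bound by factors such as MYC and USF, contains the HIF core and was present in 16.1%, 13.4% and 8.76%. GGGCGG, bound by SP and KLF proteins, was present in 26.1% (22.2 to 30.3), 13.2% and 11.8%. These 3 words contain CpG and the peaks were richer in GC than the tiles, and the part of composition in these shares was not tested.

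Words without CpG gave a mixed picture. TGAGTCA, the AP-1 site, was present in 18.4% (15.04 to 22.23) of the H1299-only peaks, in 10.7% (8.01 to 13.95) of the shared distal ones and in 14.6% of tiles. AGATAA, bound by GATA factors, was present in 33.9%, 22.3% and 53.7%, and ATGGC, the YY1 core, in 70.6%, 55.4% and 81.5%. CCAAT, bound by NF-Y, was present in 61.9%, 60.3% and 78.7%. GGAATG, bound by TEAD proteins, was present in 45.1%, 41.7% and 42.7%, and it also occurs where satellite units follow each other. The satellite word was present in 5.93% (3.98 to 8.46), 12.9% and 1.49%. For AP-1, GATA, YY1 and SP/KLF the share in H1299-only peaks was above that in shared distal peaks with intervals that did not overlap. For H1299-only peaks near a gap, taken alone, these intervals did overlap those of the shared peaks, and away from gaps they did not. The shared peaks were not split by gap, and 55.4% of them lay near one, against 37.3% of the H1299-only peaks. The part of gaps in these differences was not tested.

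Among the 21 peaks with a HIF-1α peak, the central 1000 bp held ACGTG in 14, or 66.7% (43.0 to 85.4), and in the other 451 in 220, or 48.8% (44.1 to 53.5), so the HIF core was also common where no HIF-1α peak was listed. ATGGC was present in 20 of 21 and in 69.4% of the 451, CCAAT in 18 and 60.8%, GGAATG in 14 and 44.1%, and AGATAA in 11 and 33.0%. TGAGTCA was present in 8 of 21 and in 17.5% of the 451, GGGCGG in 7 and 25.7%, CACGTG in 5 and 15.7%, and the satellite word in 1 and 5.99%. With 21 peaks the intervals were wide, and no test was run.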

How the data were processed

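ChIP-seq was done for HAUSP in both cell lines, MDA-MB-231 and H1299, but for HIF-1α in H1299 only, with 1 library per list. Reads were aligned to hg19 by the authors with Bowtie 0.12.7, set to discard reads that align to more than 1 place, and called peaks with MACS 1.4.2 at default parameters. Each deposited row gives a peak's position and its score. This score was used as given and only within a list, since its scale is not named. The 3 lists held no columns of other samples, and the input library was not used here.

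Start positions were converted to count from 1. Genes, exons, introns and TSS came from GENCODE release 44 mapped to GRCh37 (64486 genes), and sequence from the GRCh37 reference, which has the coordinates of hg19. Peaks overlapped if they shared at least 1 bp. Place was taken at the peak centre, with exons before introns. A peak said to be near a gene has that gene as its nearest protein-coding one, at any distance. Distances to a TSS were measured from the peak centre, unless given from an edge, and distances between peaks from edge to edge. No test was run, because each list is 1 library and the peaks were chosen on measured overlap. Shares carry exact Clopper-Pearson intervals and medians exact order-statistic intervals, both at 95%. The counting steps were tested on simulated data.

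The peaks, the gene lists and the words searched were chosen with earlier results of these data known. Named by rule were the 10 highest-scored peaks, the 15 with the highest HIF-1α scores, the 3 densest chromosomes, the 5 fullest windows of 1 Mb, the 3 peaks nearest to each limit on either side, genes of 5 lists that were nearest to a peak, and genes nearest to 3 or more peaks. An item that this rule selects is left out of the text. The sequences shown, UPRT, the chromosome 12 group, the windows around transcript starts, the repeat measure and 7 added alternatives were chosen after seeing the data. A further 27 alternatives had been planned, which varied the score minimum, the overlap, the TSS set and window, the place rule and the assembly gaps. Sequence was read with samtools 1.23.1 and pysam 0.24.0, intervals were computed with scipy 1.17.1, tables were handled in Python 3.11.15 with pandas 2.3.3 and numpy 2.4.6, and figures were drawn with matplotlib 3.10.9.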

Additional observations from a re-analysis of the deposited data

How the results depend on the processing

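Of 34 recomputed values, 14 stayed within the 95% interval of the reported value, or for the number of peaks within 1.5 times of it, and 20 did not. The number of peaks, 472, fell to 50 with a score of at least 100 and to 296 without peaks near an assembly gap. The share of centres in introns, 47.7%, was 36.4% with protein-coding genes only, 34.1% when any base of the peak decided the place, 38% at scores of at least 100 and 56.4% without peaks near a gap. The share between genes, 41.9%, was 55.1% with protein-coding genes only, 52% at scores of at least 100, 31.8% without peaks near a gap and 51% without peaks at a transcript start. The HIF-1α overlap, 4.45%, was 18% at scores of at least 100 and stayed between 2.97% and 6.42% under the other alternatives. The median GC content, 47.4%, was 49.7% at scores of at least 100 and 45.1% without peaks at a transcript start. The median distance to a TSS, 13380.5 bp, was 45460 bp to protein-coding TSS, 9394 bp at scores of at least 100, 11005.5 bp without peaks near a gap and 16342 bp without those at a transcript start. The share with a neighbour within 100 kb, 25.4%, was 11.4% at 20 kb, 47.9% at 500 kb and 13.5% without peaks near a gap. The cause was not tested beyond the change of definition or of peaks kept.

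No paired analysis was possible because there was only 1 library for each list. Absence from the MDA-MB-231 list means that no peak was listed there, at a depth that is unknown, and the values do not show that HAUSP was absent. Alternatives at a transcript start were added after seeing the data.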
